A study of Mus musculus with 2 samples.

Results

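Chemokine receptors of myeloid cells were described in single-cell RNA of mouse bone marrow derived macrophage cultures. The members are 5 genes, Ccr1, Ccr2, Cx3cr1, Cxcr2 and Cxcr4, chosen by name as the main receptors by which monocytes, macrophages and neutrophils sense chemokines, out of 31053 genes listed. Marrow of wild-type 129Sv mice was grown with 50 ng/ml macrophage colony-stimulating factor and 10% fetal bovine serum, and treatment was on day 7. The cells of the THP library received 1 µg/ml of a truncated, non-polymerizing form of Tamm-Horsfall protein (uromodulin, a glycoprotein made in the kidney) for 18 h. The cells of the vehicle library received 5% dextrose for the same time, and all cells of both libraries had been in the growth factor until then. Each group was 1 Chromium droplet library, so no difference has a replicate check, no test was possible, and treatment cannot be told apart from dish or library. The number of mice behind a culture is not stated in the labels.

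Chemokine receptors are heptahelical proteins that couple to inhibitory G proteins and steer a cell up a gradient of chemokine; after binding they are phosphorylated by receptor kinases, bound by arrestins and taken into the cell. CCR2, the receptor of CCL2, CCL7 and CCL12, lets inflammatory monocytes leave the marrow, while CX3CR1, the receptor of the membrane-bound chemokine CX3CL1, marks patrolling monocytes and many tissue macrophages. CCR1 binds CCL3, CCL5, CCL6, CCL7 and CCL9. CXCR2 binds the neutrophil chemokines CXCL1, CXCL2 and CXCL3, and CXCR4 binds CXCL12, the stromal chemokine that holds progenitors and young neutrophils in the marrow.

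All coordinates are of mouse build GRCm38 in the GENCODE M21 annotation, and every span is that of the whole gene. Ccr1 (ENSMUSG00000025804) lies at chr9:123962124-123968692 on the minus strand and Ccr2 (ENSMUSG00000049103) at chr9:124101950-124113557 on the plus strand, 133 kb apart in a cluster of chemokine receptor genes that also holds Ccr3. Cx3cr1 (ENSMUSG00000052336) lies at chr9:119901616-120069879 on the minus strand of the same chromosome, 3892 kb from Ccr1. Cxcr2 (ENSMUSG00000026180, plus strand) lies at chr1:74153989-74161246 and Cxcr4 (ENSMUSG00000045382, minus strand) at chr1:128588199-128592293. The start windows of the 3 chromosome 9 members are shown because Ccr1 and Ccr2 were both lower in the THP library and Cx3cr1 was higher. They are RefSeq windows of GRCm38.p6, from 250 bases before to 50 bases after the RefSeq start, printed 5′ to 3′ on the strand of the gene. They lie at chr9:123968643-123968942 for Ccr1 (minus), chr9:124101933-124102232 for Ccr2 (plus) and chr9:120068247-120068546 for Cx3cr1 (minus). The RefSeq start of Ccr1 is that of the span above. For Ccr2 and Cx3cr1 it lies inside the GENCODE span, so most of the Ccr2 window and all of the Cx3cr1 window are within the gene. Capitals mark the letters GAGGAA, a longer form of the GGAA core bound by ETS factors such as PU.1.
Ccr1: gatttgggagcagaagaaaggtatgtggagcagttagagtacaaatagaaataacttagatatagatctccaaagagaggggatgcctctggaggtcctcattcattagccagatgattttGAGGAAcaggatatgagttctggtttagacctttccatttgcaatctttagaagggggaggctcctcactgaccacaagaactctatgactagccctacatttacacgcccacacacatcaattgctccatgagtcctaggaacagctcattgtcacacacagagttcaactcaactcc
Ccr2: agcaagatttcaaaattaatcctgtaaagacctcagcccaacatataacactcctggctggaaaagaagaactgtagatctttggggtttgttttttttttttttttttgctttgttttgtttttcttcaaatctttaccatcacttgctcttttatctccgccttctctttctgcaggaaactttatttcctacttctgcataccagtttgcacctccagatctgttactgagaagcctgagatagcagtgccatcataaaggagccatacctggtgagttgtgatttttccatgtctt
Cx3cr1: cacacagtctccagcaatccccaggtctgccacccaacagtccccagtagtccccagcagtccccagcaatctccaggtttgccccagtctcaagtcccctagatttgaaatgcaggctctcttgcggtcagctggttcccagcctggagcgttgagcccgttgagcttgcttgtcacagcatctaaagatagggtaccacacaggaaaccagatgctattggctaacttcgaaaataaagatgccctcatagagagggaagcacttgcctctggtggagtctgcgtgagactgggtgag
The letters GAGGAA were searched on both strands and were held by 28.3% of 32851 RefSeq promoters of this length. Ccr1 held them at -129 as printed, and Cxcr2 held them on the opposite strand at -81 and at 6 bases from the start. The windows of Ccr2, Cx3cr1 and Cxcr4 did not hold these letters. The shorter core GGAA was not searched, and the printed windows of Ccr1, Ccr2 and Cx3cr1 all hold it. The AP-1 letters TGANTCA (7.81% of promoters), the C/EBP letters TTGCNNAA (10.8%), the hypoxia response letters ACGTG (19.6%) and the kappaB consensus (4.51%) were in none of the 5 members' windows, which says only that these letters are not there. The GC content was 38% for Ccr2, 44% for Ccr1, 54.3% for Cx3cr1, 54% for Cxcr2 and 59.3% for Cxcr4, against a median of 52.7%.

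The THP library held 13193 cell barcodes and the vehicle library 11584, of which 12123 and 10978 passed the cell filter with 224825484 and 207662132 UMIs (unique molecular identifiers, each a counted RNA molecule). The 2 libraries shared 42 barcode sequences. Levels are UMIs per 1e+06 UMIs (CPM) with exact Poisson 95% intervals in brackets, ratios are log2 of CPM + 1, THP over vehicle, and shares of cells carry exact Clopper-Pearson 95% intervals; all intervals cover counting error only. The cultures were not pure macrophages. Cells were gated by marker panels that hold no chemokine receptor, each gate asking for at least 3 panel genes with at least 2 UMIs. The macrophage gate (complement C1q genes, Adgre1, Mrc1, Mertk) took 27.9% of THP cells and 19.4% of vehicle cells, and the myeloid progenitor gate (Mpo, Elane, Prtn3) 12.5% and 17.5%. The other gates with at least 200 cells in each library were immature neutrophil (7.17% and 10.5%), mature neutrophil (3.06% and 4.44%), monocyte (5.49% and 7.77%), osteoclast-like (3.50% and 3.30%) and antigen-presenting cells with MHC class II (8.69% and 10.8%). A gate is a range of marker counts, and from 1.98% to 68.6% of a gate's cells had just the minimum number of panel genes, most in the mature neutrophil gate. The proliferation gene Mki67 was lower in the THP library in all 7 gates, for example at 242 against 503 CPM in progenitors; its part in the receptor values was not tested.

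Over all kept cells, 4 of the 5 receptors had lower levels in the THP library and 1 a higher level. A lower level was common, since 67.6% of the 8012 tested genes had a ratio below 0. Ccr1 stood at 67.7 CPM (66.6–68.8) with THP and 147 CPM (146–149) with vehicle. Ccr2 stood at 108 CPM (107–110) and 219 CPM (217–221). These 2 genes were the members past the size rule, which asks for at least 10 CPM in 1 library and a 2-fold ratio: Ccr1 was 2.16-fold lower and Ccr2 2.01-fold lower on the CPM + 1 scale. Among 8012 genes tested 2.97% were past the rule in that direction, and 144 genes had a lower ratio than Ccr1 and 227 a lower ratio than Ccr2. Both lost their place past the rule under other library scalings, with log2 ratios of -0.83 for Ccr1 and -0.73 for Ccr2 under TMM factors, which move the median gene from -0.18 to 0.11.

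Cx3cr1, at 105 CPM (104–106) with THP and 79.2 CPM (78.0–80.5) with vehicle, was the member that went the other way. Its ratio was 1.32-fold higher, or 0.40 on the log2 scale, not past the rule (0.911% of genes were past it upwards), and it lay at the 95.8th percentile of all ratios. Cxcr2 stood at 13.03 CPM (12.6–13.5) against 24.3 CPM (23.6–24.9), and Cxcr4 at 17.5 CPM (17.0–18.1) against 31.9 CPM (31.1–32.6). Their log2 ratios of -0.85 and -0.83 were not past the rule. Counting intervals separated the libraries for all 5 genes, which at this depth was common: 63.3% of tested genes had an interval below 0 and 28% one above 0. The signs of the 5 ratios were the same under every alternative run over all kept cells.

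Giving both libraries the same mix of gated cells left log2 ratios of -0.81 for Ccr1, -0.78 for Ccr2, 0.35 for Cx3cr1, -0.72 for Cxcr2 and -0.50 for Cxcr4, with none of the 5 past the rule. Differences between the libraries were also present within cell types. The plot of levels by gate shows that the spread of a receptor between cell types exceeded the gap between libraries.

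**Figure D1:**
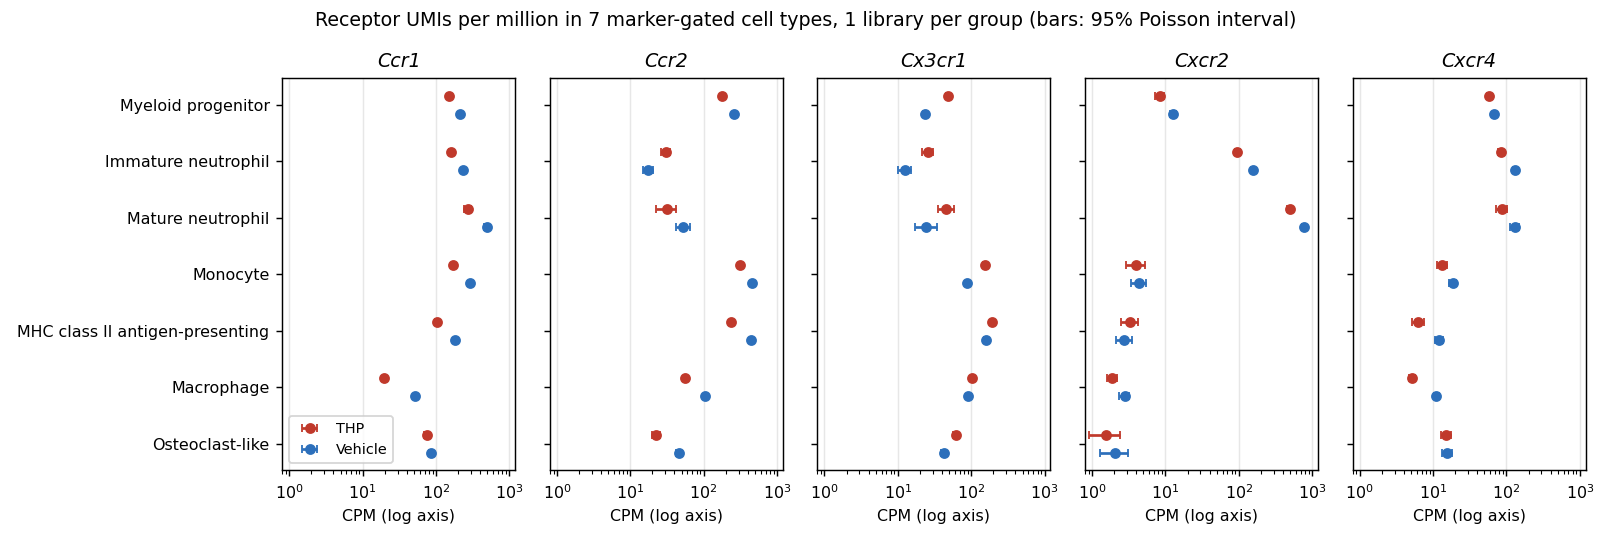
CPM of each receptor (log axis) in 7 marker-gated cell types, red for the THP library and blue for the vehicle library, with bars for the 95% Poisson interval of the count. Cxcr2 spans from 1.53 CPM in osteoclast-like cells to 767 CPM in mature neutrophils, while Cx3cr1 is to the right in the THP library in every row.

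Within gates, the size rule called most genes in mature neutrophils, the gate with fewest UMIs. Past it downwards were 14.9% of tested genes in mature neutrophils, 5.75% in immature neutrophils, 2.25% in progenitors, 2.51% in monocytes, 2.63% in macrophages, 2.1% in osteoclast-like cells and 3.64% in antigen-presenting cells. Past it upwards, in the same order, were 3.03%, 2.37%, 1.08%, 1.16%, 0.97%, 0.773% and 1.15%. Of the 35 ratios of 5 receptors in 7 gates, 4 of Cxcr2 were under the 10 CPM minimum and could not pass. Past the rule were 2 ratios, Ccr1 in macrophages and Cx3cr1 in progenitors. With a looser gate (1 UMI per panel gene) the Cx3cr1 ratio in progenitors was 0.77, not past the rule, while Ccr2 in mature neutrophils (-1.50) and Cx3cr1 in immature neutrophils (1.08) were past it. Cx3cr1 was also past it in immature neutrophils with a stricter gate (1.39), and in mature (1.15) and immature neutrophils (1.16) with TMM factors within the gate. Ccr2 in mature neutrophils had -1.08 without the top 5% of cells by UMIs. The levels behind several of these values were near the stromal background given next.

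The level that counts as background was read from the stromal gate (Col1a1, Col1a2, Col3a1, Sparc, Dcn; 56 THP and 52 vehicle cells, median 19178 and 37018 UMIs), a cell type that should lack these receptors. There Ccr1 stood at 17.5 CPM (10.8–26.8) with THP and 8.31 CPM (4.84–13.3) with vehicle. Ccr2 stood at 30.9 CPM (21.7–42.6) and 20.5 CPM (14.8–27.7), and Cx3cr1 at 23.4 CPM (15.5–33.8) and 21.02 CPM (15.2–28.3). A few stromal cells held most of these UMIs, up to 20 Ccr2 UMIs in 1 cell. Cxcr2 and Cxcr4 had at most 5 UMIs in a stromal gate. Values at or under these levels are read below as background.

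Ccr1, the receptor of CCL3 and its relatives, was highest of the 7 compared gates in mature neutrophils. Its level there was 269 CPM (242–298) with THP and 492 CPM (457–529) with vehicle. Monocytes followed with 172 CPM (165–180) and 292 CPM (284–300), then immature neutrophils with 159 CPM (149–169) and 236 CPM (226–247), and progenitors with 151 CPM (146–155) and 211 CPM (206–215). In the THP library the intervals of immature neutrophils overlapped those of both neighbours, and in the vehicle library none of these overlapped. Antigen-presenting cells had 101 and 179 CPM, osteoclast-like cells 74.3 and 86.1 CPM, and macrophages the least, so the order of the 7 gates was the same in both libraries.

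In macrophages Ccr1 stood at 19.7 CPM (18.8–20.6) with THP and 51.1 CPM (49.3–52.9) with vehicle, a log2 ratio of -1.33. This was its only gate past the rule, where 2.63% of genes were past it downwards. The THP value was within the interval of the stromal gate and the vehicle value was above it. With each cell thinned to 5000 UMIs, 8.37% of THP macrophages (7.45–9.36) and 18.1% of vehicle macrophages (16.5–19.8) had a Ccr1 UMI. The thinned stromal shares were 7.14% (1.98–17.3) and 7.84% (2.18–18.9), which overlap those of macrophages in each library. Without thinning the macrophage shares were 27.9% (26.4–29.5) and 47.7% (45.6–49.9). The unthinned stromal shares were 8.93% (2.96–19.6) and 15.4% (6.88–28.1), below the macrophage intervals in both libraries. By share of cells, then, THP macrophages stood above the stromal gate only without thinning, where they were deeper (median 23018 against 19178 UMIs). Their CPM and their thinned share did not separate them from it.

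Ccr1 was lower in the THP library in all 7 gates, with log2 ratios from -1.33 to -0.21 in osteoclast-like cells and a median of -0.76. Of 5886 genes at the 10 CPM minimum in every gate, 42.5% were lower in all 7. In thinned monocytes 58.2% of THP cells (54.3–62.0) and 74.0% of vehicle cells (70.9–76.9) had a Ccr1 UMI, and in thinned progenitors 53.0% and 62.1%. Over all cells of at least 5000 UMIs the shares were 27.4% (26.5–28.3) and 47.0% (46.0–48.1), or 49.2% and 71.8% without thinning. A single THP macrophage held 51 Ccr1 UMIs, the most in any cell of that library.

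Ccr2, the receptor that draws monocytes to CCL2, was highest of the 7 compared gates in monocytes and antigen-presenting cells; the small mast cell or basophil gate had 333 CPM (272–404) and 270 CPM (202–354). Monocytes had 316 CPM (306–326) with THP and 453 CPM (443–464) with vehicle. Antigen-presenting cells had 238 CPM (231–246) and 448 CPM (439–456), so both gates had overlapping intervals in the vehicle library and not in the THP library. Progenitors came next with 179 CPM (174–184) and 259 CPM (254–264), and macrophages had 56.2 CPM (54.6–57.7) and 105 CPM (103–108).

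Osteoclast-like cells had 22.5 CPM (19.8–25.3) of Ccr2 in the THP library, within the stromal interval, and 45.6 CPM (41.8–49.7) in the vehicle library. Unthinned, 24.5% of these THP cells (20.5–28.9) had a Ccr2 UMI, against 7.14% of THP stromal cells (1.98–17.3). Thinned to 5000 UMIs, these shares overlapped, at 7.58% (5.24–10.5) and 3.57% (0.435–12.3). Mature neutrophils had 31.3 CPM (22.7–42.2), also at the stromal level, and 52.9 CPM (41.8–66.0). These came from 16 and 28 cells, and 10 cells held 86.0% and 76.9% of the UMIs. In these 6 gates the log2 ratio was between -0.99 in osteoclast-like cells and -0.52 in monocytes, and none was past the rule. Immature neutrophils were the exception, at 30.3 CPM (26.1–35.0) with THP and 17.4 CPM (14.7–20.5) with vehicle, a log2 ratio of 0.76. Both values were at the stromal level, came from 59 of 869 and 59 of 1150 cells, and 10 cells held 48.1% and 60.4% of the UMIs.

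The libraries differed in Ccr2 both in the share of cells with a UMI and in the share with many. Unthinned, 85.0% of THP monocytes and 88.3% of vehicle monocytes had a Ccr2 UMI, but cells with at least 10 UMIs made up 17.7% of the former and 36.1% of the latter. Monocyte median depths were 15758.5 and 18279 UMIs. In the antigen-presenting gate, with median depths of 14191 and 18592 UMIs, cells with at least 10 Ccr2 UMIs made up 10.6% against 39.7%, and in the macrophage gate 3.26% against 11.2%. The median of macrophages with any Ccr2 UMI was 3 UMIs with THP and 5 with vehicle, at median depths of 23018 and 24075 UMIs per cell. Thinned to 5000 UMIs, 64.7% of THP monocytes (61.0–68.4) and 72.3% of vehicle monocytes (69.2–75.3) had a UMI. At that depth the shares were 58.3% (55.0–61.5) and 76.8% (74.2–79.3) in antigen-presenting cells, 18.2% and 24.0% in macrophages, 7.58% and 14.4% in osteoclast-like cells, and 29.0% and 39.4% over all cells.

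Progenitors were mixed for Ccr2: 53.3% of THP cells and 48.8% of vehicle cells had no UMI, while single cells reached 45 and 57 UMIs. A split of this gate by whether a cell had more detected genes of the monocyte panel or of the immature neutrophil panel, chosen after the values were seen, separated them. Progenitors with more monocyte genes (950 THP and 1143 vehicle cells) had 245 CPM (238–252) and 353 CPM (346–360) of Ccr2. Progenitors with more neutrophil genes (322 and 456 cells) had 22.1 CPM (18.0–26.8) and 41.9 CPM (37.3–46.9). Cxcr2 went the other way along this split, from 4.02 and 5.60 CPM on the monocyte side to 23.3 and 33.0 CPM on the neutrophil side. Ccr1 was about level across it, at 150 and 151 CPM with THP and 211 and 220 CPM with vehicle, and the THP library was lower on each side for these 3 receptors.

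Cx3cr1, the fractalkine receptor, was highest of the 7 compared gates in antigen-presenting cells, at 192 CPM (185–199) with THP and 157 CPM (151–162) with vehicle. Monocytes had 153 CPM (146–160) and 88.9 CPM (84.4–93.5), a log2 ratio of 0.78. Macrophages had 101 CPM (99.3–103) and 90.5 CPM (88.1–92.9), a log2 ratio of 0.16. Monocytes and macrophages thus had overlapping intervals in the vehicle library, and in the THP library monocytes stood above macrophages.

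In progenitors Cx3cr1 had 48.6 CPM (46.0–51.2) with THP and 23.7 CPM (22.2–25.2) with vehicle, a log2 ratio of 1.01 and the only gate past the rule, where 1.08% of genes were past it upwards. The vehicle value was at the stromal level and the THP value above it. Progenitors with more monocyte genes had 58.1 CPM (54.7–61.6) against 27.9 CPM (25.9–29.9), and those with more neutrophil genes 24.8 CPM (20.5–29.8) against 11.2 CPM (8.92–14.0). Osteoclast-like cells had 61.0 and 42.0 CPM, a log2 ratio of 0.53, and antigen-presenting cells a ratio of 0.29. Mature neutrophils had 45.9 CPM (35.3–58.7) and 24.4 CPM (17.1–33.8), from 22 and 17 cells, and 10 cells held 77.8% and 80.6% of the UMIs. Immature neutrophils had 25.4 and 12.3 CPM, no higher than the stromal gate beyond counting error.

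The Cx3cr1 ratio was above 0 in all 7 gates, against 17.4% of the 5886 genes. In the immature neutrophil gate both levels were background, and in the other 6 the interval of the THP value lay above the stromal one. The mature neutrophil value among these came from 22 THP cells, of which 10 held 77.8% of the UMIs. Thinned to 5000 UMIs, 46.2% of THP monocytes (42.3–50.1) and 29.5% of vehicle monocytes (26.4–32.7) had a Cx3cr1 UMI. In macrophages the shares were 30.0% (28.4–31.6) and 27.5% (25.6–29.4), which overlap. Over all thinned cells they were 29.8% and 22.9%, or 47.3% and 38.0% without thinning.

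**Figure D2:**
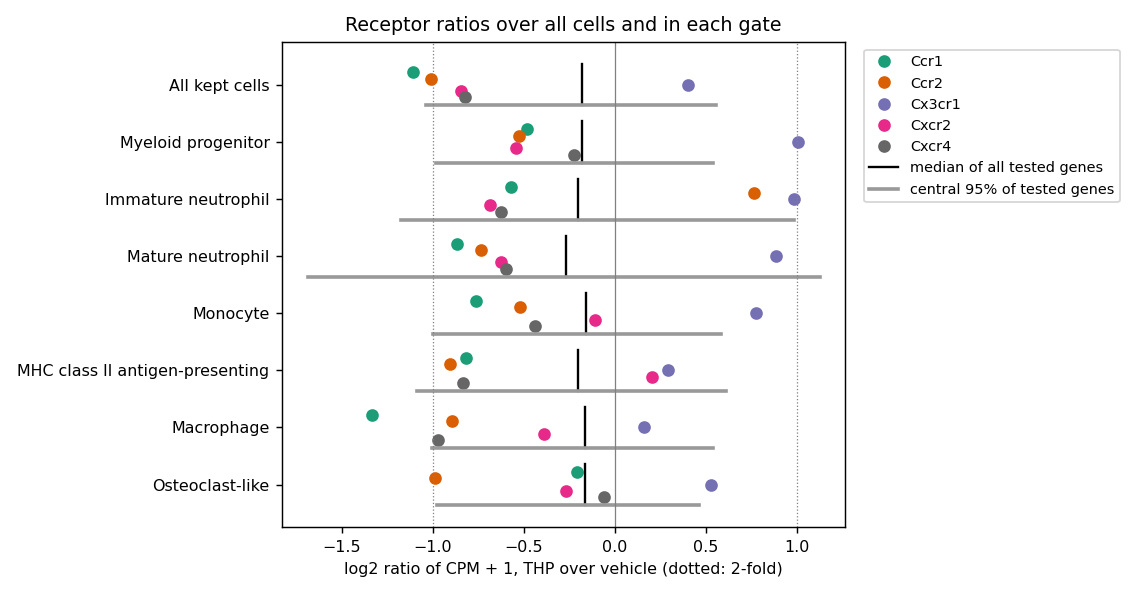
Log2 ratio of CPM + 1, THP over vehicle, of the 5 receptors over all kept cells and in each gate; black ticks mark the median of all tested genes, grey bars their central 95%, and dotted lines a 2-fold ratio. Cx3cr1 is right of 0 in every row and Ccr1 left of 0 in every row, and the widest grey bar belongs to mature neutrophils, the gate with fewest UMIs.

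Ccr2 and Cx3cr1 are the pair used to tell inflammatory from patrolling monocytes, and their joint detection differed between the libraries. The monocyte panel (Vcan, F13a1, Ly6c2, Plac8, Ms4a4c) was not made to part these kinds, so the classes below do not count monocyte subsets. Among monocytes thinned to 5000 UMIs, cells with Ccr2 and no Cx3cr1 made up 48.0% in the vehicle library and 32.4% in the THP library. Cells with Cx3cr1 and no Ccr2 made up 5.13% and 13.8%, and cells with both 24.3% and 32.4%. The product of the separate shares gives 21.3% and 29.9% for both. In antigen-presenting cells, vehicle value given before THP value, Ccr2 alone was 40.9% and 25.2%, Cx3cr1 alone 7.84% and 18.2%, and both 35.9% and 33.1%. In macrophages Ccr2 alone was 14.9% and 11.4%, Cx3cr1 alone 18.4% and 23.2%, and neither was found in 57.6% and 58.6%. A cell without a UMI in 5000 may still express the gene.

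**Figure D3:**
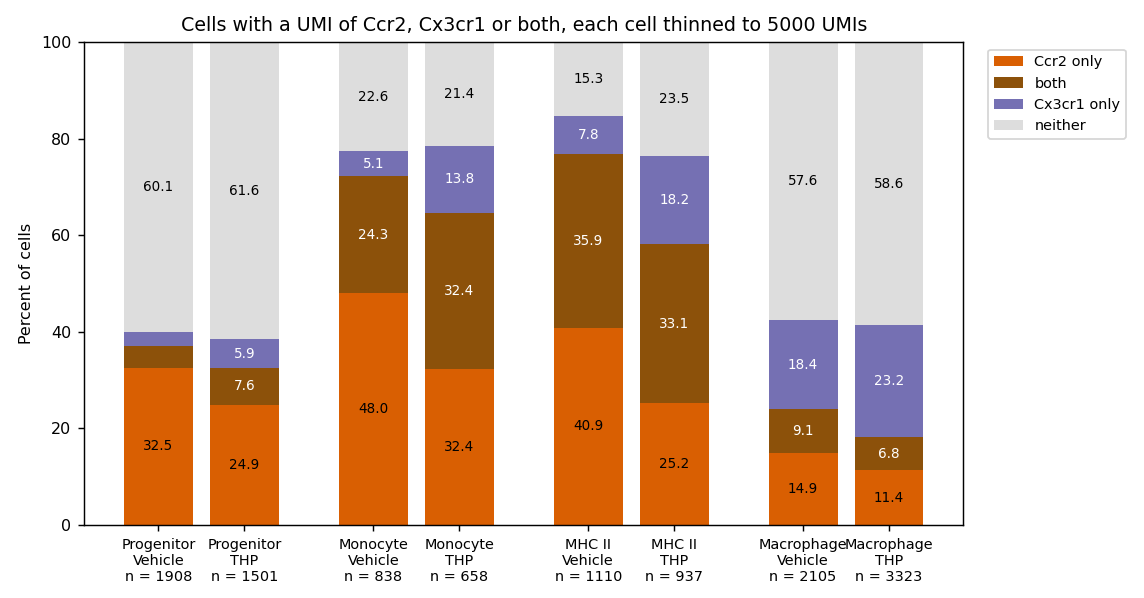
Percent of cells, thinned to 5000 UMIs, with a UMI of Ccr2 only, of both, of Cx3cr1 only or of neither, in 4 gates of each library, with the number of cells under each bar. The orange part is shorter and the purple part taller in the THP bar of each gate, and in monocytes Ccr2 only is 48.0% in vehicle and 32.4% in THP.

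Cxcr2, the receptor for CXCL1 and CXCL2, was highest of the 7 compared gates in mature neutrophils and next in immature neutrophils. Mature neutrophils had 496 CPM (460–535) with THP and 767 CPM (723–813) with vehicle, a log2 ratio of -0.63. Immature neutrophils had 95.3 CPM (87.7–103) and 154 CPM (146–163), a ratio of -0.69, and progenitors 8.30 CPM (7.26–9.45) and 12.6 CPM (11.5–13.7), a ratio of -0.54. Monocytes, macrophages, osteoclast-like and antigen-presenting cells had between 1.53 and 4.34 CPM, under the 10 CPM minimum, and all of these intervals overlapped those of the stromal gate. The small mast cell or basophil gate (45 THP and 26 vehicle cells) had 76.9 CPM (49.3–114) and 93.5 CPM (55.4–148) of Cxcr2, whose intervals overlapped those of immature neutrophils and lay above those of progenitors.

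Cxcr2 was not in the neutrophil panels and still ranked 8 by fold among the genes of the mature neutrophil gate, with 81.1% of THP and 86.0% of vehicle cells carrying a UMI. These cells held few UMIs, with medians of 2474 and 2148, so thinning to 5000 left out 87.3% and 91.8% of them. Thinned to 2000, 65.7% of THP cells (59.9–71.2) and 77.2% of vehicle cells (72.0–81.9) had a Cxcr2 UMI, and 45.9% (40.0–51.9) and 63.4% (57.6–69.0) had a Ccr1 UMI. The 2 neutrophil gates together held 43.1% and 47.8% of all Cxcr2 UMIs, and 24.4% and 21.4% lay in cells that reached no panel.

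Cxcr4, the receptor for CXCL12, was highest of the 7 compared gates in both neutrophil gates and next in progenitors; the small mast cell or basophil gate had 183 CPM (138–237) and 98.7 CPM (59.4–154). Mature neutrophils had 86.0 CPM (71.2–103) with THP and 131 CPM (113–151) with vehicle, and immature neutrophils 83.3 CPM (76.2–90.9) and 129 CPM (121–137), so these gates had overlapping intervals in each library. Progenitors had 58.0 CPM (55.2–60.9) and 68.0 CPM (65.4–70.5) and held 40.6% and 41.6% of all Cxcr4 UMIs. Monocytes (13.4 and 18.5 CPM) and osteoclast-like cells (14.9 and 15.6 CPM) had overlapping intervals in each library. Antigen-presenting cells had 6.28 CPM (5.14–7.60) and 12.0 CPM (10.6–13.5), and macrophages 5.18 CPM (4.73–5.67) and 11.1 CPM (10.3–12.0); their THP values were within the stromal interval of 0.910 to 8.55 CPM.

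Cxcr4 was lower in the THP library in 7 of 7 gates, as were 42.5% of the 5886 genes, with log2 ratios from -0.97 in macrophages to -0.06 in osteoclast-like cells, where the intervals of both libraries overlapped. The osteoclast-like ratio was 0.13 with TMM factors computed within the gate and 0.09 without the top 5% of cells by UMIs, which leaves 6 of 7 gates. No gate was past the rule. Thinned to 5000 UMIs, 31.9% of THP immature neutrophils (28.0–36.1) and 44.5% of vehicle ones (40.8–48.2) had a Cxcr4 UMI, and in progenitors the shares were 25.5% (23.3–27.8) and 29.9% (27.8–32.0).

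Counted together, a thinned cell had a UMI of 0.993 of the 5 receptors on average with THP and 1.33 with vehicle, and no UMI of any in 36.1% and 23.4% of cells. This count held only 47 and 40 mature neutrophils, and the mix of gates differed between the libraries. Within gates the averages lay closer, for example 0.602 and 0.763 in macrophages and 1.77 and 1.87 in monocytes. Across 8 gates (the 7 and the stromal gate) in 2 libraries, the log2 levels of Cxcr2 and Cxcr4 had a Pearson r of 0.85, those of Ccr1 and Cxcr4 0.83, and those of Ccr2 and Cx3cr1 0.68, over 16 points that share libraries and depth. Ccr1 and Ccr2, though neighbours in the genome, had 0.37. The genes with the most similar pattern over the same points were Acap1, Sema4a and Sorl1 for Ccr1 (r of 0.95 each) and 2610318N02Rik, Dr1 and Tespa1 for Ccr2 (0.91 each). For Cx3cr1 they were Necap2, Tnfsf9 and Ms4a6c (0.93–0.95), for Cxcr2 Rdh12, 9830107B12Rik and Mxd1 (0.98–0.99), and for Cxcr4 Dach1, Ccdc125 and Tmem40 (0.97 each). These are descriptions of 16 points and carry no test.

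Among the other chemokine receptors, Ccr3, which lies between Ccr1 and Ccr2 and is known from eosinophils, had 7.81 CPM with THP and 11.3 CPM with vehicle, a log2 ratio of -0.48. Of the 7 gates it reached 10 CPM in macrophages alone, with 16.8 and 36.05 CPM, a ratio of -1.06, between those of Ccr1 (-1.33) and Ccr2 (-0.90) in that gate. Ccrl2, a receptor-like protein that binds chemerin and does not signal, had 15.6 and 5.72 CPM, a ratio of 1.31 and past the rule upwards. Cxcr1, the neighbour of Cxcr2, had 3 UMIs and 1 UMI.

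The ligands of the 5 receptors stood on the other side. Of 17, 12 reached the minimum; 7 were past the rule upwards (0.911% of all tested genes were) and 0 downwards, and their median log2 ratio was 1.81. The CXCR2 ligand Cxcl1 had 54.3 CPM with THP and 5.50 with vehicle (3.09) and Cxcl2 had 619 and 119 (2.37). The CCR1 ligands Ccl4 and Ccl3, which are similar in sequence so that reads may have been shared between them, had 229 and 30.2 CPM (2.88) and 184 and 34.5 CPM (2.39). The CCR2 ligand Ccl12 had 66.9 and 15.2 CPM (2.07). Cx3cl1, the ligand of CX3CR1, had 0.645 and 0.506 CPM, and Cxcl12, that of CXCR4, had 1.23 and 0.693 CPM, both under the minimum.

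Other chemoattractant receptors did not follow the chemokine receptors: 6 of 8 reached the minimum, 5 had a ratio above 0, 2 were past the rule upwards, and the median was 0.80. The formyl peptide receptors Fpr1 (60.2 and 17.2 CPM) and Fpr2 (102 and 45.9 CPM) had log2 ratios of 1.75 and 1.14, the complement receptors C3ar1 and C5ar1 0.82 and 0.78, and the leukotriene B4 receptor Ltb4r1 -0.81. Of 20 genes of receptor signalling and desensitisation 18 reached the minimum, with 1 past the rule upwards, 1 downwards and a median of -0.35. Pik3r5, a subunit of the G-protein-driven phosphoinositide kinase, had 60.3 and 23.6 CPM (1.32). Plcb2, a phospholipase activated by G proteins, had 15.4 and 35.5 CPM (-1.15). Rgs2, Dock2 and the receptor kinase Grk6 had ratios of -0.83, -0.76 and -0.70.

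**Figure D4:**
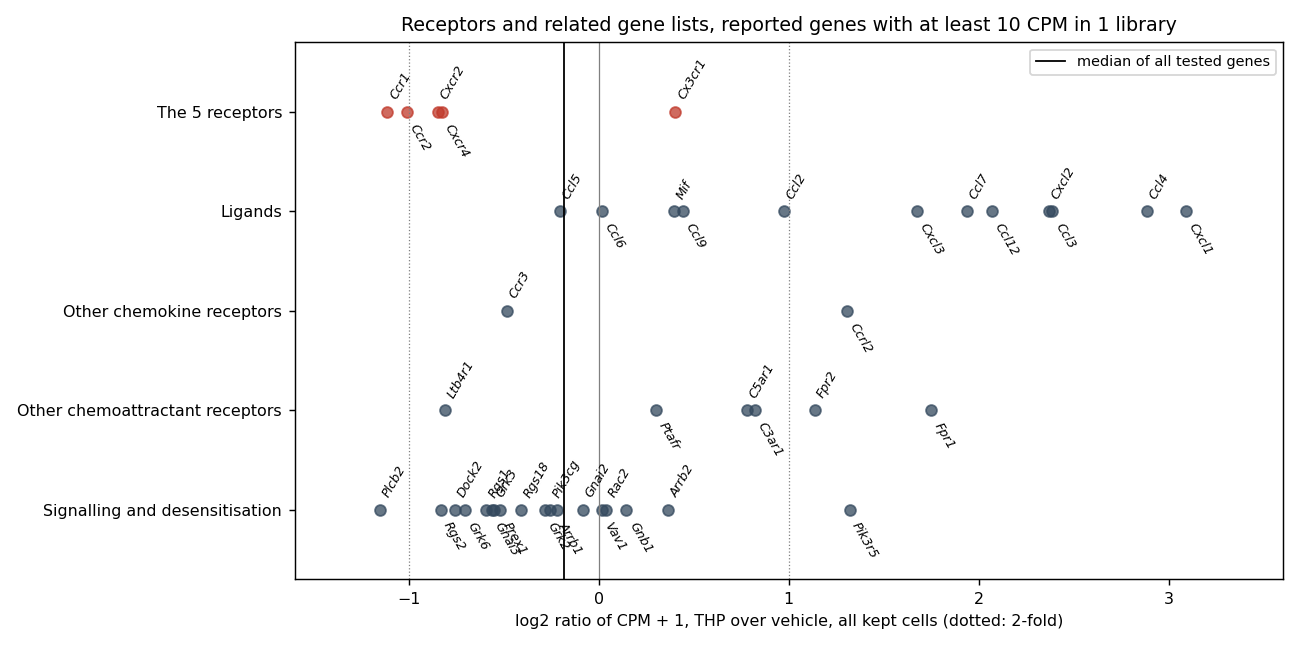
Log2 ratio of CPM + 1, THP over vehicle, over all kept cells for the 5 receptors and 4 related lists, 1 point per reported gene with at least 10 CPM in 1 library; the black line is the median of all tested genes and dotted lines mark a 2-fold ratio. Of 12 ligands 11 lie right of 0, with Cxcl1 at 3.09, while 4 of the 5 receptors lie left of 0, as do 67.6% of all tested genes.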

How the data were processed

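Single-cell RNA was measured in 1 THP and 1 vehicle library of mouse bone marrow derived macrophage cultures, grouped by the treatment in the labels. The authors deposited raw UMI counts per gene and cell barcode, written by software version 3.1.0 per the file headers; Cell Ranger, STAR, bcl2fastq and build mm10 are named in the submitters' processing notes, and the annotation release is not stated there. Cells were kept with at least 500 genes, at least 1000 UMIs and at most 10% mitochondrial UMIs. No doublets were removed; dropping the 5% of cells with most UMIs was tried instead. UMIs were summed per library, or per library and gate, and divided by the total to give CPM; the log2 ratio used a pseudocount of 1, which understates the change of low genes. A gene was tested with at least 10 CPM in 1 library, and passed the size rule at 2-fold. With 1 library per group no p-value was computed. The intervals cover counting error only, since 1 UMI is worth 0.00445 CPM with THP and 0.00482 CPM with vehicle, while dish and library effects have no measure.

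Each cell went to the marker panel (5 or 6 genes, 13 panels) with most genes at 2 UMIs or more; ties and cells with fewer than 3 such genes were left ungated. The Vsig4 macrophage and erythroid panels took no cell, and the mast cell, stromal, B cell and T or NK panels took fewer than 60 cells each per library, too few to compare. Shares of cells were taken after thinning each cell to 5000 UMIs. Named genes were the members, at most 5 genes per list, those with the ratios farthest from 0 at the minimum, and the 3 genes with the highest Pearson r with each member. 1 listed gene is not reported here. The members, lists, panels and alternatives were chosen with earlier results of these data known. TMM and RLE factors came from edgeR 4.0.16 in R 4.3.3; the rest ran in Python 3.11.15 with numpy 2.4.6, scipy 1.17.1 and pandas 2.3.3. The ratio script was tested on simulated counts. Promoter windows are those of the RefSeq table for GRCm38.p6, which held all 5 members.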

Additional observations from a re-analysis of the deposited data

Results flagged for a closer look

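Cx3cr1 was present in the barcodes that the cell filter left out, which enter no comparison above. The 1070 barcodes of the THP library held 137 CPM (122 to 153) and the 606 of the vehicle library 77.6 CPM (63.9 to 93.5), so the THP library was higher there too. The other 4 receptors were lower in the THP barcodes that were left out, with 180 against 315 CPM for Ccr1, 211 against 376 for Ccr2, 75.1 against 103 for Cxcr2 and 45.1 against 82.5 for Cxcr4.

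Ccr2 had a log2 ratio of 0.76 in the immature neutrophil gate and a ratio below 0 in the other 6 gates. The difference between gates was not tested, since each group is 1 library. Both levels were at that of the stromal gate, and with the looser gate (1 UMI per panel gene) the ratio was -0.29.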

How the results depend on the processing

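No paired analysis was possible because each group has 1 library. The 5 receptor ratios over all kept cells kept their sign in every alternative run. In the order Ccr1, Ccr2, Cx3cr1, Cxcr2 and Cxcr4, the log2 ratios were -0.83, -0.73, 0.69, -0.58 and -0.55 with TMM factors and -0.84, -0.73, 0.68, -0.58 and -0.56 with RLE factors, which put the median gene at 0.11 and 0.10 in place of -0.18. With equal weight per cell they were -1.01, -0.85, 0.48, -0.99 and -0.79, and with the same mix of gated cells -0.81, -0.78, 0.35, -0.72 and -0.50. With the trend on transcript length removed Ccr1, Ccr2, Cx3cr1 and Cxcr4 had -1.16, -0.76, 0.56 and -1.02. Without the top 5% of cells Ccr1 and Ccr2 had -1.08 and -0.99, and with all deposited barcodes Cxcr2 had -0.81. Past the rule downwards were 0 receptors under TMM, RLE or the same mix, 1 under equal weight or without the top 5% of cells, and 4 at a 1.5-fold limit, against 2. Within gates, 135 ratios were recomputed and 4 changed sign; 36 left the counting interval of the original value.

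Shares of cells with a UMI change with the depth and with which cells are deep enough to be thinned. Thinned to 2000 UMIs they were, THP before vehicle, 15.4% and 27.8% for Ccr1, 15.4% and 23.8% for Ccr2, 15.1% and 11.9% for Cx3cr1, 5.59% and 9.0% for Cxcr2 and 5.30% and 8.92% for Cxcr4. Unthinned they were 49.2% and 71.8%, 41.8% and 46.0%, 47.3% and 38.0%, 13.1% and 22.2%, and 21.2% and 35.2% in the same order. The Cxcr2 shares were lower at 5000 UMIs (4.01% and 7.30%) than at 2000 UMIs. Thinning to 5000 left out 87.3% and 91.8% of mature neutrophils, against 23.7% and 40.5% at 2000.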

Other observations

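The mast cell or basophil gate, with 45 THP and 26 vehicle cells too small for a comparison, held Ccr1 at 266 CPM (212 to 330) and 255 CPM (188 to 337) and Cx3cr1 at 22.4 CPM (9.02 to 46.2) and 10.4 CPM (1.26 to 37.5); its Ccr2, Cxcr2 and Cxcr4 levels are given above. In the 27 B cells of the THP library Ccr1, Ccr2 and Cxcr2 had 0 UMIs, which allows a share of cells with a UMI of up to 11.1% by a limit of 3 counts and 12.8% by the exact interval, in cells with a median of 1960 UMIs.

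Within the macrophage gate, Ccr2 did not follow the number of C1q genes detected, a split chosen after the values were seen. THP macrophages with 0 or 1, 2 or 3 such genes had 46.0, 70.7 and 53.5 CPM, and vehicle macrophages 122, 128 and 97.9 CPM.

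The neutrophil chemokine Cxcl2, a CXCR2 ligand, had 1816 CPM in THP mature neutrophils and 89.5 CPM in vehicle ones, a log2 ratio of 4.33, in the gate where Cxcr2 itself was highest.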
